A study of Mus musculus with 8 samples.

Results

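The genes described here encode the subunits of potassium channels in sorted cells of the embryonic mouse ventral midbrain. They were chosen by name, as every symbol of the series' annotated probe table that begins with Kcn, then 1 or more lower-case letters and a number. The rule found 93 of the 23669 genes of that table, on 108 of its 25517 probes with a symbol. No measured value entered the choice. Kcnq1ot1, which matched by its letters, is a noncoding RNA and no channel subunit, and was counted apart.

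The series compared Gfp-positive cells from the rostral and from the caudal part of the ventral midbrain of Pitx3(gfp/+) embryos at E14.5 (embryonic day). In these embryos 1 Pitx3 allele carries Gfp, so the sorted cells are those with an active Pitx3 locus, and every pool, the reference included, is of this genotype. There were 4 rostral and 4 caudal pools, each of 5 to 7 embryos spread over litters, and each was hybridised in Cy3 against the same Cy5 reference, a pool of Gfp-negative cells of these specimens. All values below are log2 ratios of sorted cells over this reference, so a value of 1 means 2-fold higher. Dyes were not swapped, so a dye effect on a probe cannot be told apart from a difference between sorted cells and the reference; between rostral and caudal pools the dye is the same. Because the reference is 1 sample, a test against it includes the spread between pools but not that of the reference, and p-values measure only the spread between these pools.

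Potassium channels let potassium leave the cell, hold the resting potential and end the action potential. The pore is built from voltage-gated subunits (Kcna, Kcnb, Kcnc, Kcnd, Kcnq, Kcnh), calcium- or sodium-activated subunits (Kcnma, Kcnn, Kcnt, Kcnu), inward rectifiers (Kcnj) or tandem-pore leak subunits (Kcnk), while Kcnf, Kcng, Kcns and Kcnv modify other subunits and Kcnip, Kcnab, Kcne and Kcnmb are auxiliary. In adult midbrain dopaminergic neurons, A-type currents through Kv4 channels, small-conductance calcium-activated channels, ATP-sensitive channels and G-protein coupled inward rectifiers are known to set pacemaking and its inhibition.

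The sorted pools were enriched for the labelled identity. All 10 dopaminergic markers were higher than in the reference, by 2.09 to 5.98 on the log2 scale, and all 7 tested radial glia markers were lower. Other lists were not wholly lower. Of 6 tested macrophage markers none was lower and 1, Mrc1, was higher (0.83). Of 9 GABAergic markers 7 were lower, while Gad2 (-0.09) and Slc32a1 (-0.28) gave no call. Slc17a6 of the glutamatergic list was higher (0.67). The ratio profiles of any pair of arrays correlated at 0.802 to 0.902 over the genes tested between rostral and caudal pools. In the sample channel, 62.53% to 70.42% of the probes of an array stood well above background. Rostral pool 2 stood apart in 1 respect: its mean ratio over 6 pericyte and mesenchyme markers was -0.35, while the other rostral pools reached down to -2.93 and the caudal pools lay between -3.20 and -2.58. In bulk RNA, fewer cells that use a gene and less of its RNA per cell cannot be told apart.

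Of the 93 genes, 46 were well above background in all 8 pools and on all 8 reference channels, and 6 in none of them. Another 3 (Kcng1, Kcnmb1 and Kcnq5) were above background in no pool but in some reference channels, and 14 in some pools but in no reference channel. A gene was tested against the reference where its probe was above background in either channel on at least 4 of the 8 arrays, which left 74 genes, and between rostral and caudal pools where this held in the sample channel, which left 71. The 19 genes tested in neither included Kcnj6 and Kcnj3. Some tested genes were above background in only the pools or only the reference, among them Kcnf1, Kcng3, Kcnh1, Kcnmb3, Kcng1 and Kcnmb1. Others reached 4 arrays on 1 side only, among them Kcnt2 (8 pools, 2 reference channels), Kcnk2 (5 pools, 1 reference channel) and Kcnn4 (2 pools, 6 reference channels). All of these passed the filter only through the side where they were high, so their p-values give no support for that direction. They stay in the counts. Bounds, where given, are defined with the processing.

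Against the reference, 49 of the 74 tested genes changed (limma, Benjamini-Hochberg adjusted p below 0.05). In sorted cells 23 of them were higher and 26 were lower. Over all 17932 genes tested, 70.1% changed, 34.2% higher and 35.9% lower, so the share of channel genes that changed was close to that of genes in general. The median ratio of the 74 was -0.02, beside 0 over all genes. The counts by family and by list given below stand beside these same shares of all genes. Of these channel genes, 5 were higher and 7 lower by at least 2-fold, beside 3.26% and 9.37% of all genes. The split depended on the centring of the arrays. With each array centred on its median in place of loess, the median of all genes moved to 0.133, and 28 channel genes were higher and 18 lower, while over all genes 8057 were higher and 4936 lower, in place of 6132 and 6436. With the scanner software's processed signals 27 were higher and 24 lower.

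**Figure D1:**
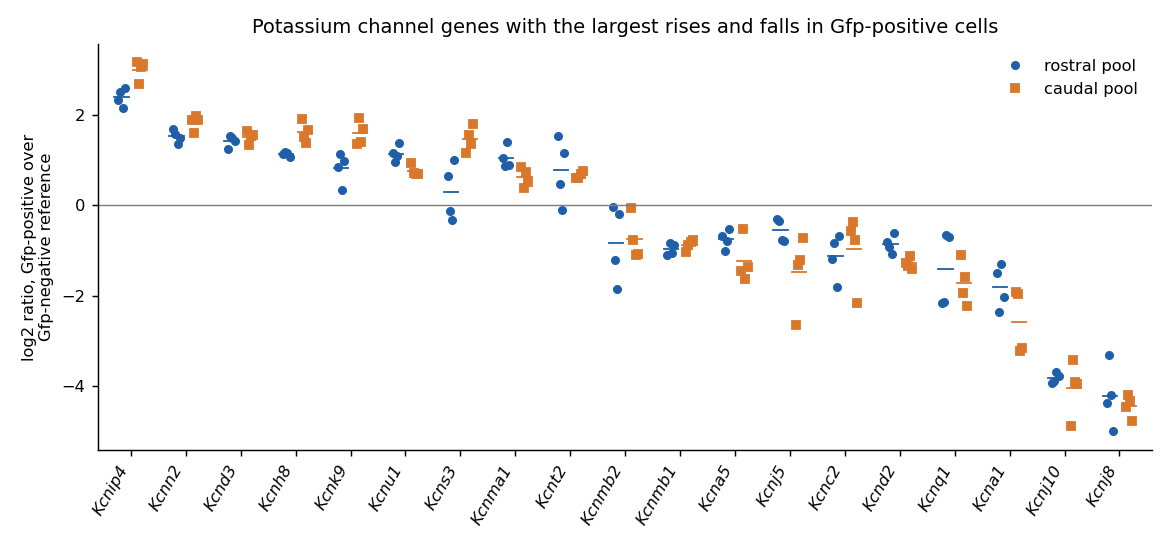
Log2 ratio of Gfp-positive cells over the Gfp-negative reference (vertical axis) for 9 of the 10 genes with the largest rises and the 10 with the largest falls, 1 point per pool (circles rostral, squares caudal, bars the group means). Kcnip4 lies between 2.17 and 3.17 in all 8 pools, and Kcnj8 between -5.02 and -3.31; Kcns3 and Kcnt2 have rostral pools on both sides of 0.

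By the probe that stands for each gene, the auxiliary subunit Kcnip4 had the highest ratio of the tested channel genes. Kcnip4 encodes a calcium-binding protein that attaches to Kv4 pores and sets their surface level and inactivation. Its ratios were 2.33, 2.51, 2.17 and 2.61 in rostral pools 1 to 4 and 3.17, 2.69, 3.06 and 3.13 in the caudal pools. Every pool was well above the reference, and every caudal pool was above every rostral one. The rise was 2.71 (SE 0.07, 6.53-fold, adjusted p = 5.25e-10).

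Of the Kv4 pores themselves, which carry the fast A-type current, Kcnd3 rose and Kcnd2 fell. The Kcnd3 ratios were 1.26, 1.54, 1.50 and 1.43 in rostral pools and 1.64, 1.34, 1.55 and 1.57 in caudal pools. All 8 were positive, the parts overlapped, and the rise was 1.48 (SE 0.04, adjusted p = 1.07e-09). The Kcnd2 ratios were -0.82, -0.91, -1.08 and -0.62 in rostral and -1.27, -1.35, -1.13 and -1.40 in caudal pools. All 8 were negative and the parts did not overlap. The fall against the reference was -1.07 (SE 0.05, adjusted p = 5.50e-08). Kcnd1 gave no call on its brighter probe, with a ratio of -0.03 (SE 0.05).

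The other Kv4 partners differed among themselves. Kcnip1 was higher in all 8 pools, from 0.26 in caudal pool 4 to 1.08 in rostral pool 2, and its rise was 0.70 (SE 0.08, adjusted p = 1.82e-05). Kcnip2 gave no call at -0.25 (adjusted p = 0.0562), with ratios from -0.72 to 0.54; it passed without rostral pool 4 (-0.31, adjusted p = 0.0311) or caudal pool 3 (-0.35, adjusted p = 0.00813). Dpp6 and Dpp10, transmembrane partners that speed up Kv4 gating and whose names fall outside the rule, were higher in every pool. Dpp6 lay between 1.54 and 1.82, with a mean of 1.71 (SE 0.04, adjusted p = 1.97e-10). Dpp10 lay between 0.71 and 1.30, with a mean of 1.06 (SE 0.06, adjusted p = 1.42e-07). Thus, by the probe that stands for each gene, the pore Kcnd3 and the partners Kcnip4, Kcnip1, Dpp6 and Dpp10 were each higher in sorted cells. The pore Kcnd2 was lower. The partner Kcnip3 was at 0.04 on that probe but at -0.77 on a brighter probe named by accession. A second Kcnd1 probe was at 0.76. Both genes are taken up below with the probes that disagreed.

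The stretches just upstream of the transcription starts of these 3 Kv4 genes are shown because Kcnd3 and Kcnip4 rose together while Kcnd2 fell. They are the 250 bases before each start in RefSeq (GRCm38.p6): Kcnd3 at chr3:105451640-105451889 on the plus strand, Kcnd2 at chr6:21215096-21215345 on the plus strand, and Kcnip4 at 2 starts, chr5:48599683-48599932 and chr5:49285660-49285909, both on the minus strand. Capitals mark matches, on either strand, to any of 6 motifs searched.
Kcnd3: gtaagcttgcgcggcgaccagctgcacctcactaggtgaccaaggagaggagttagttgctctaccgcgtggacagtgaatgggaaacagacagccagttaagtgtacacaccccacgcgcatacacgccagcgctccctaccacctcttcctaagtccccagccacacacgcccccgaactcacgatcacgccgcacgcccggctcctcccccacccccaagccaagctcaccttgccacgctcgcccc
Kcnd2: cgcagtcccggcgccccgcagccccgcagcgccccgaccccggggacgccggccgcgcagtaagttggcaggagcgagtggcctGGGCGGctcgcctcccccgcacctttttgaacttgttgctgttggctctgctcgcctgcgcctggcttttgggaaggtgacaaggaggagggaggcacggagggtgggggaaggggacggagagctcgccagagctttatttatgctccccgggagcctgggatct
Kcnip4, start 1: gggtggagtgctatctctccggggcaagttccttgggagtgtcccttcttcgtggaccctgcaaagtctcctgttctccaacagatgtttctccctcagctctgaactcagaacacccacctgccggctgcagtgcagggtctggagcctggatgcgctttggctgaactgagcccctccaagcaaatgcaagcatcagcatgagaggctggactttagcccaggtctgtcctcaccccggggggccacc
Kcnip4, start 2: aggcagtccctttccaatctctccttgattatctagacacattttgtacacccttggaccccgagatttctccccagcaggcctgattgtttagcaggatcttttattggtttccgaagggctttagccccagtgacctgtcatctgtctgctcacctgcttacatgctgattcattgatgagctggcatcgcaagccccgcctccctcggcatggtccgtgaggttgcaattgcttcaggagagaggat

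The motifs were the NBRE bound by Nr4a receptors (AAAGGTCA), the core bound by Pitx factors (TAATCC), a forkhead core (TGTTTAC), the GC box (GGGCGG), the TATA box (TATAAA) and the cAMP response element (TGACGTCA). Of the 4 stretches only that of Kcnd2 held one, a GC box. GC boxes stood in 32.7% of all 32851 promoter stretches of this length, and in 42 of the 93 stretches of the 68 matched channel genes. The NBRE stood in 1.34% of all stretches and in that of 1 channel gene, Kcnh1, and the Pitx core in 6.25% and in that of 1 channel gene, Kcnj9. The forkhead core stood in 3.17% of all stretches and in no channel gene's, the cAMP response element in 1.55% and in no channel gene's, and the TATA box in 12.4% and in 3 of the 93. The G plus C share of the printed stretches ranged from 51.2% (the second Kcnip4 start) to 68.8% (Kcnd2).

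**Figure D2:**
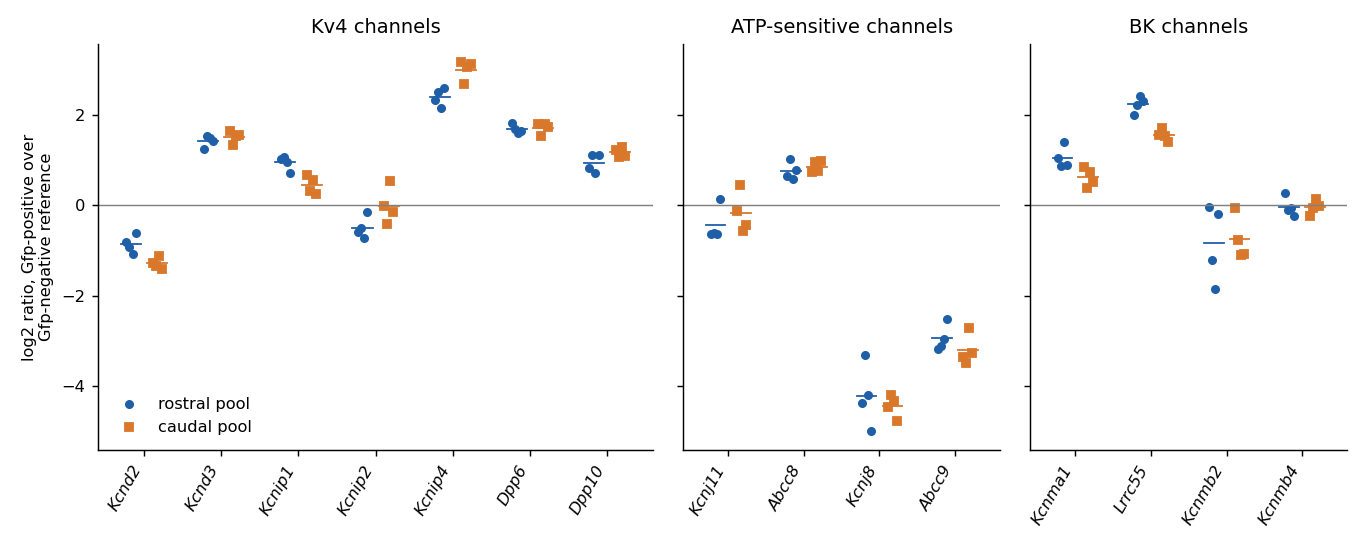
Log2 ratio over the reference for subunits of 3 channel complexes, 1 point per pool (circles rostral, squares caudal, bars group means). Kcnip3 and Kcnd1 are not drawn. In the Kv4 panel Kcnd2 lies below 0 and Kcnd3, Kcnip1, Kcnip4, Dpp6 and Dpp10 above it; in the ATP-sensitive panel Abcc8 lies above 0 and both Kcnj8 and Abcc9 between -5.02 and -2.53; in the BK panel Kcnma1 and Lrrc55 lie above 0.

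Among the other voltage-gated pores, 15 Kv genes were tested. Of these 4 were higher and 6 lower, and their median was -0.03; with median centring 8 were higher and 4 lower, so no direction holds for them as a group. Kcna4, an A-type pore, was higher in all 8 pools, from 0.26 to 0.69, with a rise of 0.60 (SE 0.04, adjusted p = 1.03e-06). Kcna6, a delayed rectifier, was also higher in all 8, from 0.08 to 0.85, with a rise of 0.45 (SE 0.05, adjusted p = 1.18e-05) on its brightest probe. A second table probe, above background in all pools and on all reference channels, gave -0.02 (SE 0.05, adjusted p = 0.766 over all probes), and the mean over its probes was 0.22.

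Kcna1, which encodes an axonal low-threshold pore, fell the most of the Kv pores. Its ratios were -1.49, -2.38, -1.30 and -2.04 in rostral and -1.93, -1.97, -3.24 and -3.16 in caudal pools. All were negative, the parts overlapped, and the fall was -2.19 (SE 0.18, adjusted p = 3.03e-06). Kcna1 was above background in 4 rostral and 2 caudal pools and on all 8 reference channels. With the processed signals its fall was -2.95. Kcnc2, a pore of fast-spiking cells, lay between -2.16 and -0.38 and fell by 1.05 (SE 0.20, adjusted p = 0.000998). Kcna2 is not among the symbols of the table; a probe named for it by accession alone gave -0.19 (adjusted p = 0.0143 over all probes).

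Of the 7 tested modifier subunits, which form no channel alone, 3 were higher and 3 lower. Kcns3 had ratios of 0.66, -0.13, -0.34 and 1.02 in rostral pools and 1.16, 1.57, 1.35 and 1.80 in caudal pools. Its caudal pools were all above its rostral pools, and its rise over both parts was 0.89 (SE 0.15, adjusted p = 0.000425). Kcng3 was above background in 5 pools and in no reference channel, with a bound of 1.43-fold towards sorted cells. It entered the test only through the pools. Kcnf1 was at 0.27 (adjusted p = 0.0276) on the table's probe, which was above background in 7 pools and on no reference channel. This call was lost without rostral pool 2, rostral pool 4 or any 1 of caudal pools 2, 3 and 4, at adjusted p of 0.0533 to 0.0725, and with median centring (0.15, adjusted p = 0.162). A brighter Kcnf1 probe named by accession, above background on all channels, gave 0.00 (SE 0.15, adjusted p = 0.993 over all probes), so no direction can be given for Kcnf1. Kcng1, above background in no pool, had a bound of 1.47-fold towards the reference and entered the test only through the reference.

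Of the Kcnq genes, which encode M-type and related slow pores, 4 were tested, and 1 was higher and 2 lower (1 and 1 with median centring). Kcnq3, a subunit of M-type channels, gave no call at 0.21 (adjusted p = 0.118), with ratios from -0.36 to 0.66, and passed without caudal pool 4 (0.28, adjusted p = 0.0391). Kcnq1, best known from heart and epithelia, had ratios of -2.17, -2.14, -0.67 and -0.70 in rostral and -1.10, -1.94, -1.58 and -2.22 in caudal pools. It was above background in 4 of 8 pools and on all 8 reference channels, and fell by 1.57 (SE 0.20, adjusted p = 7.05e-05). Kcnq5 was above background in no pool and on 3 reference channels, with a bound of 1.36-fold towards the reference and no test.

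The Kcnh family, which holds the EAG, ERG and ELK channels, had 4 of 6 tested members higher and none lower, with a median of 0.43. Of all genes, 34.2% were higher and 35.9% lower. By the probe that stands for each gene, Kcnh8, an ELK pore, rose most. Its ratios were 1.13, 1.19, 1.16 and 1.08 in rostral pools and 1.92, 1.53, 1.39 and 1.66 in caudal pools. The caudal pools were all higher, and the rise over both parts was 1.38 (SE 0.07, adjusted p = 8.95e-08). A dimmer table probe of Kcnh8, above background in all 8 pools and on 3 reference channels, gave 0.01 (SE 0.05). A probe named by accession gave 0.87 (SE 0.11). Kcnh4, another ELK pore, lay between 0.37 and 1.14 (0.68, SE 0.10, adjusted p = 0.000127). Kcnh5, an EAG pore, lay between -0.64 and 1.17 (0.64, SE 0.17, adjusted p = 0.0063). Kcnh1, above background in no reference channel, had a bound of 1.16-fold towards sorted cells (adjusted p = 0.043 of the fit). It entered the test only through the pools. It did not pass with median centring (0.11, adjusted p = 0.288) or without rostral pool 2 or 3 or caudal pool 1, 3 or 4 (adjusted p 0.06 to 0.113). Kcnh2, the ERG pore that shapes firing pauses in dopaminergic neurons, gave no call at 0.22 (adjusted p = 0.0604), but passed without rostral pool 2 (0.29, adjusted p = 0.0142).

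**Figure D3:**
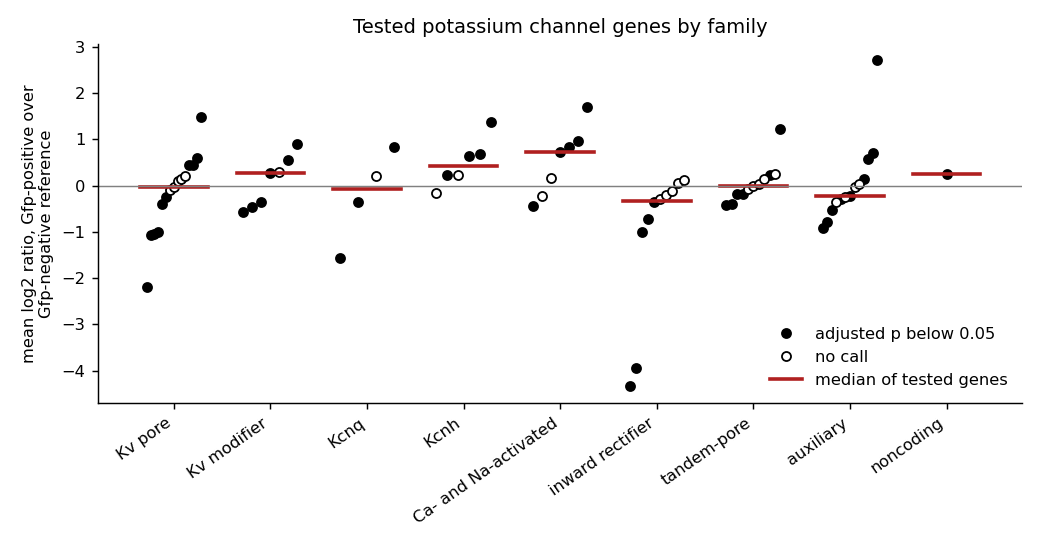
Mean log2 ratio over the reference of the 74 tested genes by family (1 point per gene; filled, adjusted p below 0.05; open, no call; red bar, median of the family). The calcium- and sodium-activated genes have the highest median of the channel families, 0.72, and the inward rectifiers the lowest, -0.33, with Kcnj8 and Kcnj10 near -4.

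Of the 7 tested calcium- and sodium-activated genes, 4 were higher and 1 lower, under each scaling tried except the processed signals (5 and 1). Of all genes, 34.2% were higher and 35.9% lower. Kcnn2, a small-conductance calcium-activated pore that follows the spike with a hyperpolarization, had ratios of 1.69, 1.59, 1.37 and 1.50 in rostral and 1.89, 1.60, 1.98 and 1.90 in caudal pools. All were above 1 and the rise was 1.69 (SE 0.05, adjusted p = 3.30e-09). Kcnn3, the small-conductance subunit best known from adult dopaminergic neurons, was above background in 4 of 8 pools and in no reference channel. It gave no call (0.17, adjusted p = 0.173), nor did a brighter probe named by accession that was above background on all channels (0.16, SE 0.19), while the processed signals gave 1.05 with a call (adjusted p = 0.03). Kcnn4 was the 1 that fell, by 0.44 (SE 0.08, adjusted p = 0.000448). It was above background in 2 of the 8 pools and on 6 reference channels, and entered the test only through the reference. Kcnt2, a sodium-activated pore, rose by 0.72 (SE 0.15, adjusted p = 0.00208), with a range of -0.09 to 1.55 over rostral and 0.61 to 0.75 over caudal pools. The processed signals gave 1.55. Kcnt2 was above background in all 8 pools but on only 2 reference channels, and entered the test only through the pools.

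Kcnma1, the pore of the large-conductance BK channel, had ratios of 1.04, 0.88, 1.40 and 0.90 in rostral and 0.85, 0.39, 0.75 and 0.52 in caudal pools. All 8 were positive, the rostral pools were all above the caudal ones, and the rise was 0.84 (SE 0.07, adjusted p = 3.22e-06). Its 2 other table probes, both dimmer, gave smaller rises of 0.27 (SE 0.08, adjusted p = 0.0155 over all probes) and 0.41 (SE 0.11, adjusted p = 0.00726), each with 7 of 8 pools positive and with parts that overlapped; the mean over the probes was 0.51. Lrrc55, a leucine-rich repeat protein that eases BK opening and falls outside the rule, lay between 2.0 and 2.44 in rostral and between 1.40 and 1.72 in caudal pools, with a rise of 1.90 (SE 0.07, adjusted p = 6.97e-09). Of the BK beta subunits, 2 were called lower. Kcnmb1, the smooth muscle subunit, was above background in no pool, with a bound of 1.76-fold towards the reference. It entered the test only through the reference. Kcnmb2 lay between -1.85 and -0.05 and fell by 0.79 (SE 0.20, adjusted p = 0.00607), a call lost within slide row 1 (-0.52, adjusted p = 0.117). A brighter Kcnmb2 probe named by accession, above background on all channels, lay between -1.28 and -0.81. Its mean was -1.04 (SE 0.06, adjusted p = 2.4e-07 over all probes). Kcnmb4, the neuronal beta subunit, was at -0.04 (SE 0.06, adjusted p = 0.601), and at 0.29 on a probe named by accession (adjusted p = 0.03 over all probes). Kcnu1, the BK relative best known from sperm, was higher in all 8 pools, from 0.69 to 1.38 (0.96, SE 0.06, adjusted p = 2.46e-07).

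The inward rectifiers held the steepest falls. Of 10 tested genes, none was higher and 5 were lower, beside 34.2% higher and 35.9% lower of all genes. Median centring and the processed signals each called 1 higher, with 6 and 5 lower. Kcnj8, the Kir6.1 pore of vascular ATP-sensitive channels, had ratios of -4.39, -3.31, -4.22 and -5.02 in rostral and -4.47, -4.22, -4.34 and -4.78 in caudal pools. All were far below 0, the least so rostral pool 2. The fall was -4.34 (SE 0.16, 20.3-fold, adjusted p = 7.42e-09), and without rostral pool 2 it was -4.50 (adjusted p = 7.33e-09). Abcc9, the sulfonylurea receptor that joins Kcnj8 in vascular cells, moved with it, from -3.50 to -2.53 (-3.08, SE 0.11, adjusted p = 5.12e-09).

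Of the pericyte and mesenchyme markers, 5 of 6 tested were lower too, Pdgfrb with -4.72; their part in the Kcnj8 and Abcc9 falls was not tested. The other ATP-sensitive pair, Kir6.2 (Kcnj11) and its receptor Abcc8, is that of dopaminergic neurons. Abcc8 was higher in all 8 pools, from 0.58 to 1.02 (0.81, SE 0.06, adjusted p = 1.00e-06). Kcnj11 gave no call at -0.30 (adjusted p = 0.0559). Its ratios were -0.63, -0.61, -0.62 and 0.14 in rostral and -0.13, 0.44, -0.56 and -0.44 in caudal pools. Thus 6 of 8 pools were below 0, and without rostral pool 4 the fall passed (-0.40, adjusted p = 0.0142), as it did without caudal pool 2 (-0.40, adjusted p = 0.0101). A second Kcnj11 probe, named by accession, was above background in all 8 pools and gave -0.04 (SE 0.09, adjusted p = 0.714 over all probes).

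Kcnj10, the Kir4.1 pore of glia, had ratios of -3.94, -3.90, -3.70 and -3.79 in rostral and -4.89, -3.42, -3.91 and -3.97 in caudal pools. The parts overlapped and the fall was -3.94 (SE 0.13, 15.3-fold, adjusted p = 3.74e-09). The mean ratio of 7 radial glia markers was -3.48 to -2.99 in rostral and -3.33 to -2.98 in caudal pools, with Slc1a3 at -4.16 and Fabp7 at -4.86. All 5 oligodendrocyte precursor markers were lower too, with a mean ratio of -3.68 to -2.92 in rostral and -3.94 to -3.42 in caudal pools. The part of either cell type in the Kcnj10 fall was not tested.

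The G-protein coupled inward rectifiers (GIRK channels), through which D2 autoreceptors silence adult dopaminergic neurons, were dim. Kcnj6, the GIRK2 subunit of the substantia nigra, was above background in 1 rostral and 2 caudal pools and in no reference channel. Its ratios were -0.01, 0.72, 0.00 and -0.01 in rostral and 0.42, 0.08, 0.06 and 1.17 in caudal pools, so rostral pool 2 and caudal pool 4 stood highest. The bound over the 8 pools was 1.23-fold towards sorted cells, with no test, and its brighter mean includes pools not above background. Kcnj3, the GIRK1 subunit, was above background in 1 pool on the table's probe and was not tested; a probe named by accession, above background in 6 pools, gave no call at -0.07 (SE 0.06, adjusted p = 0.305 over all probes). Kcnj9, the GIRK3 subunit, was measured throughout and gave no call at -0.21 (adjusted p = 0.0571), though it passed without rostral pool 4, caudal pool 1 or caudal pool 4 (adjusted p 0.0313 to 0.0448). Kcnj5, the GIRK4 subunit, ranged from -2.66 to -0.31 and fell by 1.01 (SE 0.18, adjusted p = 0.000701).

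The receptors that open GIRK channels were measured beside them. Their median was -0.07, with 5 of 13 tested higher and 6 lower, beside 34.2% and 35.9% of all genes. Drd2, the autoreceptor itself, was higher in all pools, from 1.51 to 2.83 (2.09, SE 0.13, adjusted p = 3.62e-07). The kappa opioid receptor gene Oprk1 rose by 1.36 (SE 0.10, adjusted p = 9.68e-07), the adenosine receptor gene Adora1 by 1.01 (SE 0.06, adjusted p = 2.74e-07) and Drd3 by 0.69 (SE 0.08, adjusted p = 2.71e-05). Oprk1 was above background in 8 pools and on 1 reference channel. It entered the test only through the pools, so its p-value gives no support for that direction. Drd4 fell by 0.96 (SE 0.14, adjusted p = 0.00013) and Adra2c, an adrenergic receptor gene, fell by 1.48 (SE 0.22, adjusted p = 0.000205).

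Of the 11 tested tandem-pore genes, which encode leak channels, 2 were higher and 4 lower; with median centring 4 were higher and none lower, so here too no direction holds for the group. Kcnk9 (TASK-3), an acid-sensitive leak pore, had ratios of 0.85, 1.14, 0.34 and 0.99 in rostral and 1.36, 1.94, 1.40 and 1.70 in caudal pools. All 8 were positive and the caudal pools were all higher; the rise was 1.21 (SE 0.11, adjusted p = 3.94e-06). Kcnk3 (TASK-1), its closest relative, was at -0.01 (SE 0.08, adjusted p = 0.93). Kcnk2, the stretch-sensitive TREK-1 pore, rose by 0.23 (adjusted p = 0.0186). It was above background in 5 pools and on 1 reference channel, and entered the test only through the pools. It did not pass with median centring (0.12, adjusted p = 0.189), the processed signals (0.50, adjusted p = 0.058), within slide row 2 (0.07, adjusted p = 0.563) or without rostral pool 1 (0.19, adjusted p = 0.052).

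Of the remaining auxiliary subunits, Kcnab1, a cytoplasmic beta subunit of Kv1 channels, rose by 0.58 (SE 0.11, adjusted p = 0.000897), from -0.34 to 0.66 over rostral and from 0.65 to 1.27 over caudal pools. Kcnab3 fell by 0.53 (SE 0.11, adjusted p = 0.00137) and Kcne3 by 0.29 (SE 0.07, adjusted p = 0.00307). Kcnab2 was above background in 2 pools and in no reference channel, with a bound of 1.23-fold towards sorted cells and no test. Kcnmb3, above background in no reference channel, had a bound of 1.10-fold towards sorted cells and entered the test only through the pools. Its call (adjusted p = 0.0281 of the fit) was lost without rostral pool 2 or 3 or caudal pool 1, 2 or 3 (adjusted p 0.0505 to 0.071). It was also lost with median centring (0.03, adjusted p = 0.629). The noncoding Kcnq1ot1 was at 0.26 (SE 0.09, adjusted p = 0.0257), and at -0.08 on a probe named by accession.

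Other dim genes have only bounds, with no test and each in 3 pools or fewer. The brighter mean includes pools not above background, so no bound is a strict lower limit. Against the reference, the bounds towards sorted cells were 1.20-fold for Kcnh6 and for Kcns1, 1.09-fold for Kcnk7 and 1.08-fold for Kcnh7. Kcng2 gave no bound above 1. Between the parts, the bound for Kcns1 was 1.42-fold towards rostral pools. Towards caudal pools it was 1.19-fold for Kcnh6 and 1.14-fold for Kcnn1. Kcnj15 was dim on the table's probe, but a probe named by accession, above background on all channels, gave -0.28 (SE 0.07, adjusted p = 0.00593 over all probes) against the reference and a rostral minus caudal difference of -0.05 (SE 0.14).

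Partner proteins that bind potassium channels, from a list of 22 genes outside the rule, had a median of 0.46, beside 0 over all genes. Of 20 tested members, 15 were higher and 3 lower (75% and 15%), beside 34.2% and 35.9% of all genes. Among the 15 was Pias3, above background in 8 pools and on no reference channel, which entered the test only through the pools. Members that fell included Abcc9 and Cntn2, which encodes a juxtaparanodal adhesion protein (-1.0, SE 0.06, adjusted p = 2.97e-07). Lgi1, a secreted partner of Kv1 complexes, lay between 1.52 and 2.46 (2.05, SE 0.09, adjusted p = 3.78e-08). Ank3, the ankyrin that anchors channels at the axon initial segment, rose by 1.05 (SE 0.06, adjusted p = 1.11e-07). Pumps and cotransporters had 4 higher and 6 lower of 11 (5 and 5 with median centring): Atp1b1 rose by 0.62 (SE 0.05, adjusted p = 1.39e-06), and Slc12a4 (-3.30, SE 0.11) and Atp1b2 (-1.70, SE 0.04) fell.

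Taken part by part, 37 of 74 genes changed in rostral pools against the reference (17 higher, 20 lower), beside 59.6% of all genes (28.7% higher, 30.9% lower), and 45 in caudal pools (20 higher, 25 lower), beside 57.8% of all genes (27.2% higher, 30.7% lower). Both parts share the reference, so their lists are not independent.

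The comparison of rostral with caudal pools asks which channel genes differ between these territories of dopaminergic neurons. Of 71 genes tested, 4 differed, 3 higher in rostral pools and 1 higher in caudal pools. Over all 17465 genes tested, 5.77% differed, 3.2% towards rostral and 2.57% towards caudal, so the channel genes' share was near the background. At an unadjusted p below 0.05 there were 22 of the 71, beside 3187 of all 17465 genes. The 4 rostral values lay wholly above or below the 4 caudal values for 13 of the 71 genes (9 rostral, 4 caudal), beside 11.9% of all genes.

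**Figure D4:**
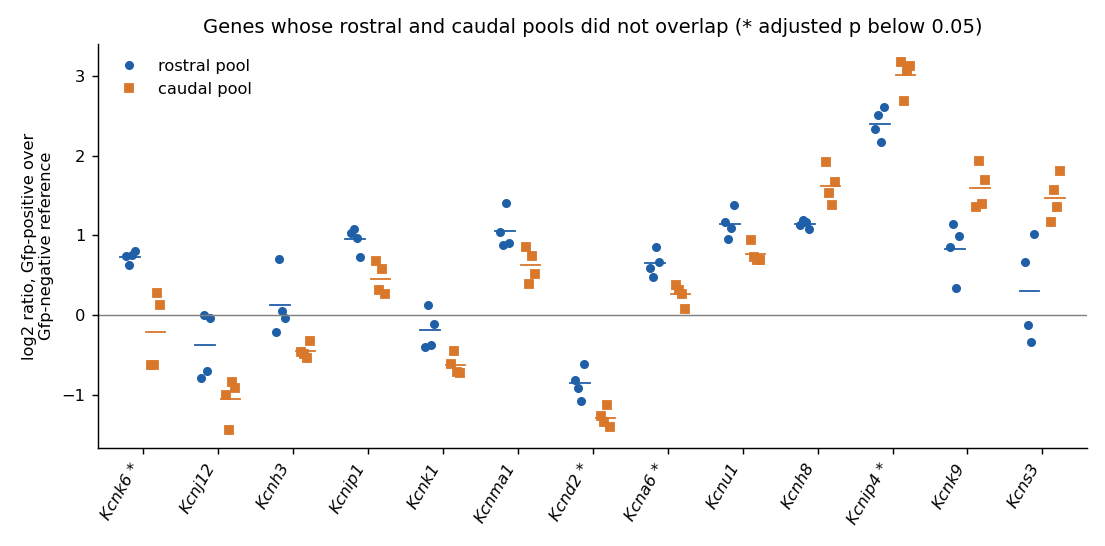
Log2 ratio over the reference in rostral (circles) and caudal pools (squares; bars, group means) for the 13 genes whose 4 rostral and 4 caudal values did not overlap, ordered from the highest rostral excess to the highest caudal excess; an asterisk marks the 4 with adjusted p below 0.05. Kcnk6 lies above 0 in all rostral pools and on both sides of 0 in caudal pools.

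Kcnk6 (TWIK-2), a weak inward-rectifying leak pore, had the highest rostral excess. Its ratios were 0.74, 0.63, 0.75 and 0.81 in rostral and -0.63, -0.63, 0.28 and 0.12 in caudal pools. The rostral pools were alike, while the caudal pools spread around 0. The difference was 0.94 (SE 0.23, adjusted p = 0.041); within the slide's rows it was 1.31 in row 1 and 0.58 in row 2, neither with a call.

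Kcna6 had ratios of 0.59, 0.48, 0.85 and 0.67 in rostral and 0.37, 0.32, 0.26 and 0.08 in caudal pools. All were positive and the rostral pools were higher, by 0.39 (SE 0.09, adjusted p = 0.0388); within rows the difference was 0.19 and 0.59. The second table probe of Kcna6 gave no call between the parts (0.00, SE 0.11, adjusted p = 0.997 over all probes), and as a mean over its probes the gene gave 0.20 with no call (adjusted p = 0.247). Kcnd2, given above, was higher in rostral pools by 0.43 (SE 0.10, adjusted p = 0.0432; 0.44 and 0.42 within rows), which left it below the reference in both parts. Kcnip4 was higher in caudal pools, with a rostral minus caudal difference of -0.61 (SE 0.13, adjusted p = 0.0265; -0.51 and -0.71 within rows). A Kv4 pore and a Kv4 partner thus differed between the parts in opposite directions, while Kcnd3 gave no call (-0.09, SE 0.08, adjusted p = 0.629).

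These calls rest on few pools. None of the 4 genes passed without rostral pool 1 or without caudal pool 1. Kcna6 and Kcnip4 still passed without rostral pool 2, Kcnd2 without rostral pool 3 and Kcnip4 without rostral pool 4. Kcnip4 still passed without caudal pool 2, Kcnd2 and Kcnk6 without caudal pool 3 and Kcnk6 without caudal pool 4. Genes outside the 4 also passed without rostral pool 2 and, as Kcns3 did, without rostral pool 4. The direction was the same in all of these fits for each of the 4 genes. Of the cell type lists, GABAergic markers differed between the parts (3 of 9 higher in rostral and 2 in caudal pools), as did 5 of 10 dopaminergic markers (1 rostral, 4 caudal) and 1 of 6 macrophage markers, Mrc1, higher by 2.07 in rostral pools. Of the other lists, 1 member each differed: Isl1 of the motor markers was higher in rostral pools (0.65), and Pou4f2 of the glutamatergic (-2.78), Fev of the serotonergic (-0.82), Vim of the radial glia (-0.63) and Tubb3 of the pan-neuronal markers (-0.39) were higher in caudal pools. No member differed of the oligodendrocyte precursor, endothelial, pericyte, erythroid and cell cycle lists. The part of any of these in the channel differences was not tested.

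Another 9 genes had parts that did not overlap without a call. Towards caudal these were Kcns3 (-1.17, SE 0.30, adjusted p = 0.0521, and -1.41, adjusted p = 0.0253, without rostral pool 4), Kcnk9 (-0.77, SE 0.21, adjusted p = 0.0682) and Kcnh8 (-0.48, SE 0.14, adjusted p = 0.0936). Towards rostral they were Kcnj12, an inward rectifier (0.67, adjusted p = 0.119), Kcnh3 (0.58, adjusted p = 0.153), Kcnip1 (0.50, adjusted p = 0.0983), Kcnk1 (0.44, adjusted p = 0.164), Kcnma1 (0.43, adjusted p = 0.13) and Kcnu1 (0.38, adjusted p = 0.0931). Kcnj12 was below 0 in all caudal pools, from -1.44 to -0.84, and between -0.79 and 0.00 in rostral pools. Kcnh3 lay between -0.22 and 0.70 in rostral and between -0.53 and -0.33 in caudal pools.

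Outside the rule, the BK partner Lrrc55 was higher in rostral pools by 0.69 (SE 0.14, adjusted p = 0.0185) and the Kv1 partner Cntnap2 by 0.56 (SE 0.13, adjusted p = 0.04). Of 12 tested receptors that open GIRK channels, 2 were higher in rostral pools. Adra2a, an adrenergic receptor gene, lay between -0.41 and 0.03 in rostral and between -2.08 and -1.31 in caudal pools (1.42, SE 0.17, adjusted p = 0.00219). Cnr1, the cannabinoid receptor gene, lay between -0.01 and 0.76 in rostral and between -1.12 and -0.60 in caudal pools (1.16, SE 0.16, adjusted p = 0.00397). The cotransporter gene Slc12a7 was higher in rostral pools (0.79, SE 0.19, adjusted p = 0.0464).

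For some genes the value depended on the probe. In what follows, p-values were adjusted over all probes tested. The Kcnk9 probe of the table gave 1.21, but a brighter probe, listed there as A930009L07Rik, a symbol that RefSeq (GRCm38.p6) gives as an older name of Kcnk9, gave 4.11, 4.10, 4.11 and 3.92 in rostral and 5.08, 4.96, 5.11 and 5.06 in caudal pools. All were far above those of the first probe, and the parts did not overlap. Its mean was 4.56 (SE 0.04, adjusted p = 3.94e-12) and its rostral minus caudal difference -0.99 (SE 0.07, adjusted p = 0.000742). Both probes were higher in caudal pools; whether the second lies on the Kcnk9 transcript was not tested.

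**Figure D5:**
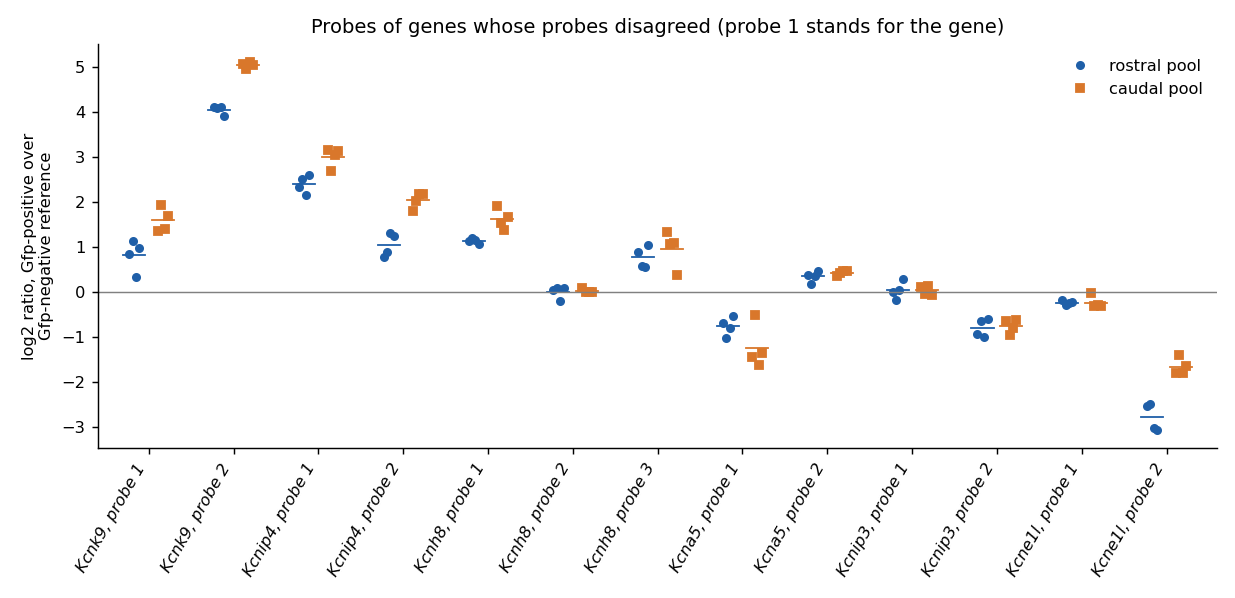
Log2 ratio over the reference, 1 point per pool (circles rostral, squares caudal, bars group means), for each tested probe of 6 genes whose probes differed; probe 1 stands for the gene in the counts. The second Kcnk9 probe lies between 3.92 and 5.11, the first between 0.34 and 1.94, and the second Kcne1l probe lies between -3.06 and -1.40 while the first stays between -0.31 and -0.01.

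Kcnip4 had a second probe, named by accession, on which the reference was above background on no array. It lay between 0.77 and 1.32 in rostral and between 1.81 and 2.19 in caudal pools, and its rostral minus caudal difference was -1.0 (SE 0.16, adjusted p = 0.0115), the direction of the first probe. For Kcnh8, the 3 tested probes gave 1.38, 0.87 (SE 0.11) and 0.01 (SE 0.05).

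Kcna5 had probes called in opposite directions: the table's probe gave -1.0 (SE 0.12, adjusted p = 5.94e-05), between -1.62 and -0.52, and a probe named by accession gave 0.39 (SE 0.06, adjusted p = 0.000217), between 0.19 and 0.48. No direction can be given for Kcna5. Kcne1l, an auxiliary subunit gene, was at -0.23 (SE 0.06) on the table's probe. On a probe named by accession it had ratios of -2.53, -2.48, -3.02 and -3.06 in rostral and -1.80, -1.40, -1.79 and -1.65 in caudal pools. The second probe thus lay far lower, most so in rostral pools, with a difference of -1.11 (SE 0.16, adjusted p = 0.00797) that the first probe did not show (0.00, SE 0.11). Kcnip3 was at 0.04 (SE 0.06) on the table's probe, which was above background on 2 reference channels, and at -0.77 (SE 0.06, adjusted p = 1.96e-06) on a probe named by accession that was above background on all 8. Kcnd1 had a second table probe at 0.76 (SE 0.14, adjusted p = 0.000985), against -0.03 on the first.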

How the data were processed

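Two-colour Agilent arrays of 4 rostral and 4 caudal pools were analysed. The deposited intensity values are spot and local background medians in both channels, which the authors extracted with Agilent's Feature Extraction (version 10.7.3.1 per the headers of the files). The submitters' processing notes also name RMA, with no role. The deposited flags (well above background, saturated, outlier) are 0 or 1 per spot. Of the deposited annotated table only the probe names and symbols were used; its 8 columns of values per sample match no label.

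Background was corrected by normexp (offset 50) and each array normalized by loess, with control and outlier spots (210 to 298 per array) at weight 0, in R 4.3.3 with limma 3.58.1. All 8 arrays lie on 1 slide in 2 rows and share 1 scan. The probe with the highest mean signal stood for its gene. Contrasts of a group-means model were tested with limma (lmFit, eBayes with an intensity trend), 2-sided, with Benjamini-Hochberg adjustment over all genes tested. A gene not well above background in a channel or part has only a bound. This is the brighter mean over the dim one. Each dim array was set to the higher of its own value and the lowest signal well above background. The brighter mean includes arrays not above background, and each bound holds for the main scaling only, so it is no strict lower limit. Such bounds compare channels and are open to dye bias, since dyes were not swapped. Named were the 10 steepest rises and the 10 steepest falls, the regional calls, a list known from dopaminergic physiology, genes whose probes disagreed, and genes with a bound; other named genes were chosen after their values were seen. Some genes of these lists are counted but not reported here by name. The members and lists were chosen with earlier results of these data known. The alternatives were the scanner software's processed signals, other normalizations, filters and probe rules, blocks for replicate number and slide row, fits within a row, and leaving out each pool. The fits were tested on simulated data. Pools with the same number shared no more than the number (correlations of their deviations from -0.062 to 0.021). Promoter letters were read from RefSeq's table, which matched 68 of 93 genes.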

Additional observations from a re-analysis of the deposited data

Results flagged for a closer look

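In 4 of 74 sets of 4 pools looked at, 1 pool lay far from the other 3; chance alone marks about 1 set in 20. The Kcnj11 ratio of rostral pool 4 was 0.14, while the others lay between -0.63 and -0.61. The Kcnu1 ratio of caudal pool 1 was 0.94, while the others lay between 0.69 and 0.73. The Kcne1l ratio of caudal pool 1 was -0.01 on the table's probe, while the others lay between -0.31 and -0.29. The Kcng1 ratio of rostral pool 1 was -0.34, while the others lay between -0.61 and -0.56; Kcng1 was above background in no pool.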

How the results depend on the processing

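The number of channel genes that changed against the reference stayed between 34 and 52 over all alternatives, beside 49. In caudal pools it fell from 45 to 29 when both channels had to be above background on all arrays, a filter that left 46 channel genes to test. Over all genes, 8694 of 14219 changed in caudal pools under that filter, in place of 10372 of 17932. In rostral pools the number of channel genes fell from 37 to 24 within slide row 2, and that of all genes from 10687 to 7317. The number of regional calls, 4 in the main fit, was 2 with the processed signals, 1 with median centring and 1 with no filter. It was 0 with no intensity trend (20 at an unadjusted p below 0.05, beside 2974 of all 17465 genes) and 2 with slide row as a block. It was 0 within row 1 (9 unadjusted, beside 2241), 0 within row 2 (14 unadjusted, beside 2288) and 2 with the sample channel alone. Other alternatives added calls. Kcns3 passed with scaling between arrays (limma adjusted p = 0.0498) and with probes named by accession (0.0493), as did Kcne1l with the latter (0.00388). Kcnk9 passed with older symbols updated (limma adjusted p = 0.000351) and with both channels above background on all arrays (0.0485). Leaving out 1 pool gave 0 to 3, the lowest without rostral pool 1 (19 unadjusted, beside 3041) and without caudal pool 1 (21 unadjusted, beside 2794), all with limma. With the replicate number as a block there were 0 regional calls (19 unadjusted, beside 2998), and over all genes 616 in place of 1008; against the reference 45 channel genes changed. Pools of the same number share only the number. Of the genes named here, Kcnip3 turned in sign when probes were named by accession (-0.770), since a brighter probe then stood for it. The processed signals gave larger sizes for called genes, over 1.5 times for Kcnmb1 (-3.42), Kcnq1 (-3.38), Kcng1 (-1.83), Kcnmb2 (-1.44), Kcng3 (1.65), Kcnt2 (1.55), Kcns3 (1.35), Kcnmb3 (1.19), Kcnh1 (1.14), Kcnf1 (0.79) and Kcnk2 (0.50). Kcnd3 fell to 0.60 as a mean over its probes, of which the dimmer was above background on no channel and had a mean ratio of -0.27. The cause of the larger sizes with the processed signals was not tested. The number of arrays and the dim signal of many channel probes limit the precision.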

Other observations

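Probes outside the annotated table's symbols gave further values for the potassium channel loci. A probe named by accession as Kcnd3os, a transcript of the opposite strand at Kcnd3, was at 1.13, 1.17, 1.12 and 1.65 in rostral and at 1.85, 1.70, 1.54 and 1.40 in caudal pools, with a mean of 1.45 (SE 0.08, limma adjusted p = 3.32e-07 over all probes). All 8 pools were higher than the reference, as they were for Kcnd3, and the parts overlapped. A second Kcnn3 probe, named by accession, gave ratios from -0.88 to 0.89 over rostral and from -0.46 to 0.76 over caudal pools. Both channels were above background on all 8 arrays, and the pools of each part lay on both sides of 0.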
